A study of Coregonus migratorius and Coregonus peled with 8 samples.

Results

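Peled (Coregonus peled) was compared with Baikal omul (Coregonus migratorius) in larvae reared in aquaculture, over 6 of the 8 libraries of the series. The members were chosen by their labels alone: 3 peled libraries and 3 omul libraries, 1 per species in each of 3 states. The states were an unheated control, acute stress (water brought quickly to 21 °C for 1 h) and chronic stress (24 h at 21 °C, repeated 3 times per week). All 6 groups had spent 1.5 months in tanks at 9 to 12 °C before any heating. Each library was made from the poly(A) RNA of a pool of 12 to 16 whole larvae, so a group has no replicate, and the 3 states took the place of replicates of a species. No strain, age or parentage is given in the labels. The remaining 2 libraries, a nature peled and a nature omul pool, were both labelled control larvae and taken from hatchery ponds. They were left out of this comparison and are used only where the species difference is set against that of larvae from nature.

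Omul and peled are coldwater whitefishes of the salmon family. The omul is known from Lake Baikal, whereas the peled lives in lakes and rivers of northern Eurasia and is widely stocked and farmed. Salmonids descend from an ancestor whose whole genome was doubled, so many of their genes are present as close copies. A de novo assembler such as Trinity, whose name the identifiers carry, places related sequences in a shared component and numbers its genes. Copies, alleles or species variants of a gene can thus stand under separate identifiers.

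The deposited list held 2184 genes, each with a normalized expression value per library. The files do not pair the identifiers with gene names, so no gene, pathway or cell type is named here and the labelled tissue could not be checked against markers. The selection rule of the list is not stated. Each gene varied over the 8 libraries by at least 2.25 on the log2(value + 1) scale and reached at least 8.20 in some library. Genes of steady level are thus missing, and every share below describes this list and not the transcriptome. Summed values over the list were 79169 to 104725 in the peled libraries and 112336 to 118972 in the omul libraries. Listed at 0 were 24 to 49 genes in the peled libraries and 49 to 74 in the omul libraries. Sequencing depth is unknown.

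By correlation, 1 library from nature stood nearer to the other species than to its own. Across the 2184 genes, nature peled correlated on the log2 scale with the aquaculture peled libraries at r = 0.22 to 0.41 and with the aquaculture omul libraries at 0.64 to 0.65. By the same measure nature omul followed its label, at 0.36 to 0.51 with aquaculture peled and 0.65 to 0.68 with aquaculture omul. Its r with aquaculture omul was close to that of nature peled, and the libraries from nature correlated with each other at 0.93. In sets of genes the nearness of nature omul varied, as given below. Whether a pool held larvae of its labelled species alone could not be checked from these values, and the labels are used as given. Among the 6 aquaculture libraries the pattern followed the labels, with r = 0.86 to 0.89 within peled, 0.91 to 0.93 within omul and 0.10 to 0.25 between the species. These values describe genes and not replicates, and the libraries of a species share their rearing too.

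Most listed genes differed between the species, in both directions and by large amounts. In limma's moderated test with state as a block, 1844 of 2184 genes (84.4%) passed at a Benjamini-Hochberg adjusted p below 0.05, and these are called here. Of the called genes 845 were higher in peled (38.7% of those tested) and 999 lower (45.7%). This balance depended on the scaling. With libraries scaled to a common sum 923 genes were called higher in peled and 902 lower, and with a common median 837 higher and 1008 lower. Mean summed values were 88249 in the peled and 116038 in the omul libraries as deposited. Over the 845 genes the median was 18.1 in peled and 2.20 in omul, and a median log2 difference of 2.49. The 999 genes stood at 2.46 in peled and 17.2 in omul, with a median log2 difference of -2.18. In whole larvae, fewer cells of a type and less RNA per cell cannot be told apart. With 1 pool per species and state, the p-values do not measure the spread between replicate pools. They set the mean difference against its unevenness over the 3 states. That spread was moderated by the trend over all genes. The trend weighed more (prior degrees of freedom 5.54) than a gene's own spread (2 residual).

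**Figure D1:**
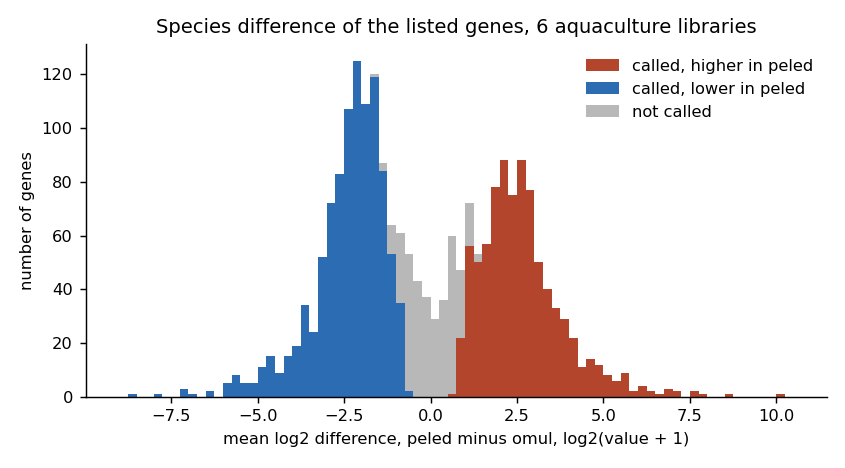
Mean log2 difference, peled minus omul, of the 2184 listed genes over the 3 states (x axis, log2(value + 1)) against the number of genes (y axis), in bins of equal width. The distribution has 2 peaks, near the medians of -2.18 for the 999 genes called lower in peled and 2.49 for the 845 called higher, with the 340 genes not called mostly between them.

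The sizes reached far beyond 2-fold. A log2 difference of 2 or more was found for 581 genes called higher in peled and 597 called lower, and one of 3 or more for 253 called higher and 210 called lower. At 4 or more there were 101 higher and 81 lower genes, and at 6 or more 17 higher and 8 lower. Small differences were few, with 60 called genes below a log2 difference of 1 in size, the smallest at 0.69. The SE of a gene's difference had a median of 0.34. Of the 340 genes not called, 306 had a difference below 1 in size. The other 34 lay between 1 and 1.64, and in 19 of them the sign changed between states.

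The largest increase in peled was in TRINITY_DN79_c1_g2, whose function is not known from the files. It had values of 3758, 2881 and 3047 in control, acute and chronic peled, against 8.57, 0.558 and 0.264 in the same states of omul. The lowest peled value thus lay far above the highest omul value, and within omul the control library stood above the heated ones. The mean log2 difference was 10.24 (SE 0.56, 95% interval 8.94 to 11.54, limma adjusted p = 1.52e-05, n = 3 libraries per species).

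TRINITY_DN28795_c0_g1 came next among the higher genes, with 914, 1085 and 1037 in control, acute and chronic peled, against 5.11, 0.64 and 0.749 in omul. The groups did not overlap, and again the omul control held the highest of the low values. Its log2 difference was 8.60 (SE 0.49, limma adjusted p = 1.52e-05).

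The strongest decrease was in TRINITY_DN7205_c1_g2, at 1.84, 1.75 and 2.27 in control, acute and chronic peled, against 1301, 1130 and 1183 in omul. Both species were steady over the states. The log2 difference was -8.67 (SE 0.35, limma adjusted p = 1.43e-05).

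TRINITY_DN5_c3_g1 followed, with 2.23, 1.94 and 1.31 in peled, against 811, 599 and 489 in omul. The log2 difference was -7.79 (SE 0.34, limma adjusted p = 1.43e-05). Its groups did not overlap either. In each of these 4 genes the species were at least 179-fold apart in each state. The genes were named for a large difference of 1 sign in the 3 states, so this describes them alone. In the libraries from nature TRINITY_DN5_c3_g1 stood at 580 in peled and 573 in omul.

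**Figure D2:**
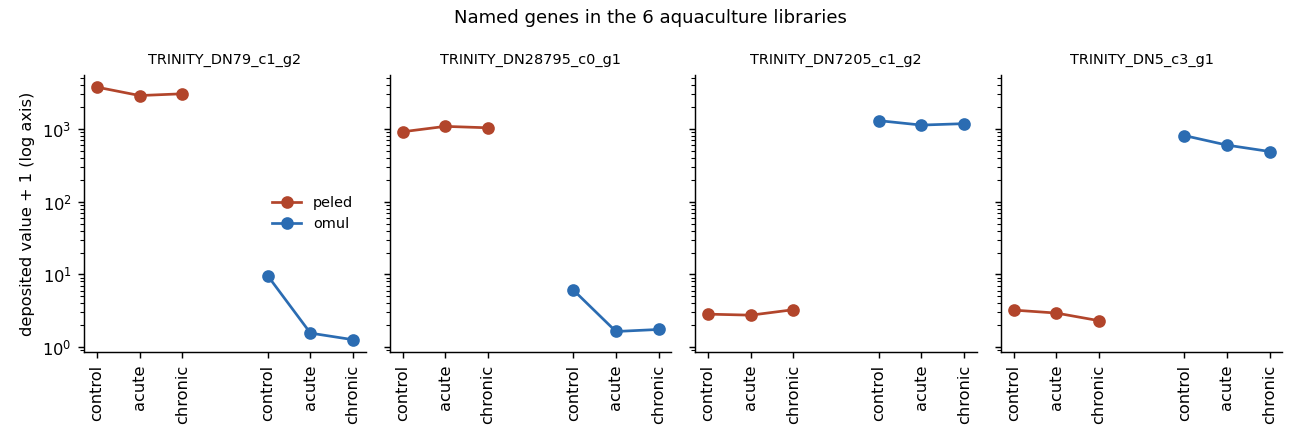
Deposited value plus 1 (log axis) of the 4 named genes in each of the 6 aquaculture libraries, with peled in red at the left of each panel and omul in blue at the right, 1 point per library in the states control, acute and chronic. TRINITY_DN79_c1_g2 and TRINITY_DN28795_c0_g1 are high in the 3 peled libraries, at 914 or above, and TRINITY_DN7205_c1_g2 and TRINITY_DN5_c3_g1 in the 3 omul libraries, at 489 or above.

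Complete separation of the 3 peled from the 3 omul libraries was common. In 810 genes the lowest peled value exceeded the highest omul value, and in 946 the highest peled value lay below the lowest omul value, together 80.4% of the list. Among the called genes, 779 of the 845 higher and 927 of the 999 lower were separated in this way. Calls and separation rest on the same values of the 6 libraries, so the test favours separated genes. Species took a median of 86.9% of a gene's sum of squares over the 6 libraries, state 6.55% and the remainder 3.72%. In 1783 genes (81.6%) species held more than 50% of it, and in 309 genes state held more than species.

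The calls came from the whole range of levels. When genes were ranked by mean log2 value over the 6 libraries and divided into 4 equal groups of 546, 85.0% of the lowest, 94.0% of the second, 83.2% of the third and 75.6% of the highest group were called, beside 84.4% overall. The lowest group held 186 higher and 278 lower genes, and the highest 164 higher and 249 lower, while the middle groups were nearly balanced, with 264 higher and 249 lower in the second and 231 higher and 223 lower in the third. Scaling for gene length is not stated, so the groups order deposited values, not molecules. Every listed gene reached at least 8.20 in some library of the series, so a listed gene of low mean was high somewhere. The shares called in the lower groups are therefore shaped by the make-up of the list.

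Most listed genes had a species difference of 1 sign in the 3 states. Among all 2184 genes 904 were higher in peled in each state, 1051 were lower in each and 229 had no single sign. Of the called genes, 840 of the 845 higher and 990 of the 999 lower had the same sign throughout. The test favours this, since it asks for a mean difference that is large beside its spread over the states. A log2 difference of at least 1 in every state was found for 679 higher and 752 lower genes. Across genes, the difference in the control libraries correlated with that in the acute libraries at r = 0.93 and with that in the chronic libraries at r = 0.91, and acute with chronic at 0.92 (n = 2184 genes). The 3 differences share no library, but they share the species and the list.

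The size of the difference varied more than its sign. Its median absolute value was 2.15 for the control pair, 2.28 for the acute pair and 2.06 for the chronic pair of libraries, with a median SD over the 3 states of 0.54 per gene. Counting genes that reached 10 in either library of a pair, a ratio of 2-fold or more was found for 1460 of 1667 genes in the control (87.6%), 1501 of 1670 after acute (89.9%) and 1338 of 1611 after chronic stress (83.1%). The acute pair gave the largest difference of the 3 states for 894 genes, the control pair for 680 and the chronic pair for 610. The smallest difference of a called gene fell in the chronic pair for 781 genes (42.4%), in the control pair for 572 and in the acute pair for 491. With 1 library per species and state, these orders could not be tested.

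**Figure D3:**
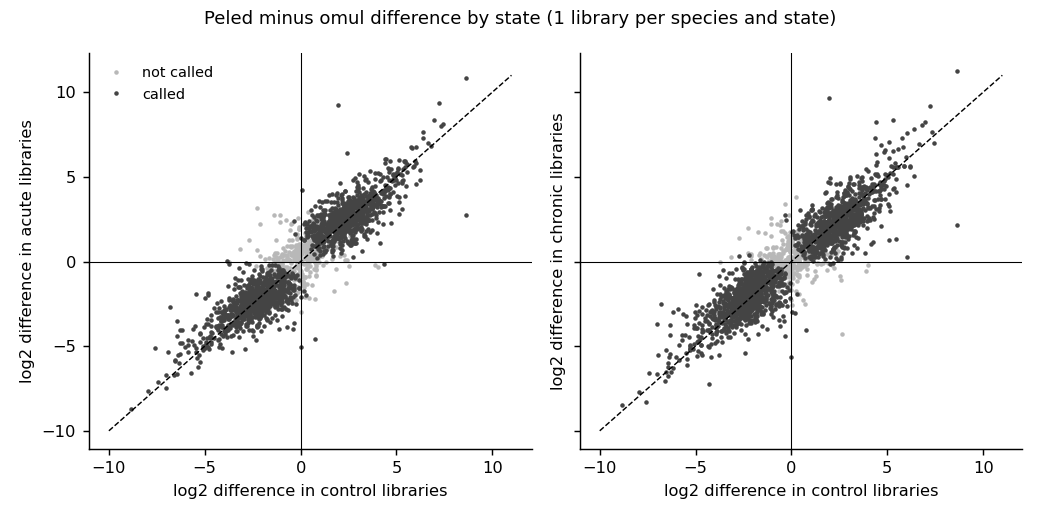
Log2 difference, peled minus omul, in the acute (left) and chronic (right) libraries against that in the control libraries, 1 point per gene, called genes dark and others grey, with the line of equality dashed. Points lie along the line, with r = 0.93 for acute and 0.91 for chronic stress, and few dark points fall in the quadrants of opposite sign.

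Reversals between states were rare. In 16 genes the difference was at least 1 in 1 direction in some state and at least 1 in the other direction in another. Limma called 0 of these genes for the species difference, beside 84.4% of the list, and 0 had an unadjusted p below 0.05. The test sets the mean difference against its spread over the states. A reversal makes the mean small and the spread large, so picking genes for it all but fixes this count. In 8 of the 16 peled was lower than omul in the control and higher in both heated states. Over these 8 genes the medians were 1.25 in control, 95.3 in acute and 6.40 in chronic peled, against 4.71, 18.5 and 1.82 in the same states of omul. Of the remaining 8, 4 were lower in peled after chronic stress alone, 2 after acute stress alone, 1 was higher in peled after chronic stress alone and 1 after acute stress alone. The 16 genes were picked for their reversal, so their values are a description.

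A small group of genes was near the floor in 1 species. In 20 genes all 3 peled libraries were below a value of 1 while all 3 omul libraries were at 10 or above, with omul means of 12.5 to 170. The opposite pattern was found in 40 genes, with peled means of 12.0 to 90.1. These counts depended on single libraries and on scaling. The first was 9 with libraries scaled to a common sum, 45 without acute peled and 49 without chronic peled, and the second was then 49, 44 and 45. Without control omul the first was 29 and the second 67. In 10 genes all 3 peled libraries were listed at 0, and in 26 genes all 3 omul libraries were. Of the 10, 3 stood at 10 or above in each omul library, and of the 26, 17 stood at 10 or above in each peled library. In the nature library of the same species 0 of the 10 and 0 of the 26 were listed at 0, with medians of 2.6 and 2.8. Over the whole list of 2184 genes only 20 were at 0 in nature peled and 6 in nature omul, so these counts are near those of the list. At 10 or above were 1100 of all listed genes in nature peled and 1159 in nature omul. Of the 20 genes low in peled, 7 were at 10 or above in nature peled and 8 in nature omul. Of the 40 low in omul, 8 were at 10 or above in nature omul and 3 in nature peled. Depth is unknown, so a value of 0 does not set an upper limit on the expression of the gene.

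The low side of the strongly different genes was uneven over the libraries. In the 101 genes called at least 4 (log2) higher in peled, the peled libraries had median values of 58.4 in the control, 59.3 after acute and 62.9 after chronic stress, against 1.33, 0.839 and 0.807 in the same states of omul. The omul control alone held the highest omul value in 46 of the 101. In the 81 genes called at least 4 lower, the peled medians were 0.631, 1.20 and 1.30 in control, acute and chronic larvae, against 72.4, 60.8 and 68.4 in omul, and the peled control was the highest peled library in 12 of the 81. The low-side values were thus relatively high in the unheated library of omul and in the heated libraries of peled. They amounted to medians of 0.784% to 1.83% of the omul mean in the peled libraries and 0.934% to 1.48% of the peled mean in the omul libraries. Over the whole list, 49, 70 and 74 genes were at 0 in control, acute and chronic omul, and 49, 24 and 45 in peled. Each state was 1 library per species, and a link to heating was not tested. How often these libraries were highest over all listed genes was not computed, so the counts do not set these genes apart.

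Genes of a shared assembly component were called in the same direction in some components and in opposite directions in others. The list held 2078 components, of which 99 had more than 1 listed gene, 92 with 2 genes and 7 with 3. Of the 205 genes in them 165 (80.5%) were called, near the 84.4% of the whole list, with 70 higher and 95 lower in peled. In 31 of the 99 components at least 1 member was called higher and at least 1 lower. Among the 92 components with 2 genes these were 29 (31.5%), while among all pairs of listed genes 35.4% were called in opposite directions, so opposed calls were about as frequent as in the list at large. In 14 components 2 or more members were called and all were higher, in 24 all were lower, and in 30 fewer than 2 members were called. The share of all pairs called in the same direction was not computed, so these counts do not set the components apart from the list.

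The sums of opposed members were closer between the species than the members were. In the 31 components the most positive member had a median log2 difference of 3.16 and the most negative one of -3.10. The summed value of the component had a median absolute log2 difference of 0.33, with a range of -1.06 to 1.73, and 28 of the 31 sums differed by less than 1. In the 38 components whose called members agreed in direction the sums had a median absolute difference of 2.12, and 0 lay below 1. Opposed members move a sum towards 0 by arithmetic, so this contrast was not tested.

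The widest gap between members was in component TRINITY_DN29953_c0, singled out after its values were seen. Its gene TRINITY_DN29953_c0_g1 stood at 196, 161 and 176 in control, acute and chronic peled, against 2.52, 0.55 and 0.631 in omul (log2 difference 6.42, SE 0.34, limma adjusted p = 1.52e-05). TRINITY_DN29953_c0_g2 stood at 0.487, 0.44 and 1.16 in peled, against 255, 199 and 206 in omul (log2 difference -7.04, SE 0.33, limma adjusted p = 1.43e-05). The 2 genes therefore separated the species completely and in opposite directions. Their sum was 196.4, 161.3 and 176.8 in peled, against 257.4, 199.9 and 206.8 in omul, a log2 difference of -0.31. In the libraries from nature both genes were present in both species, with the first at 90.6 in peled and 148 in omul and the second at 188 in peled and 233 in omul.

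**Figure D4:**
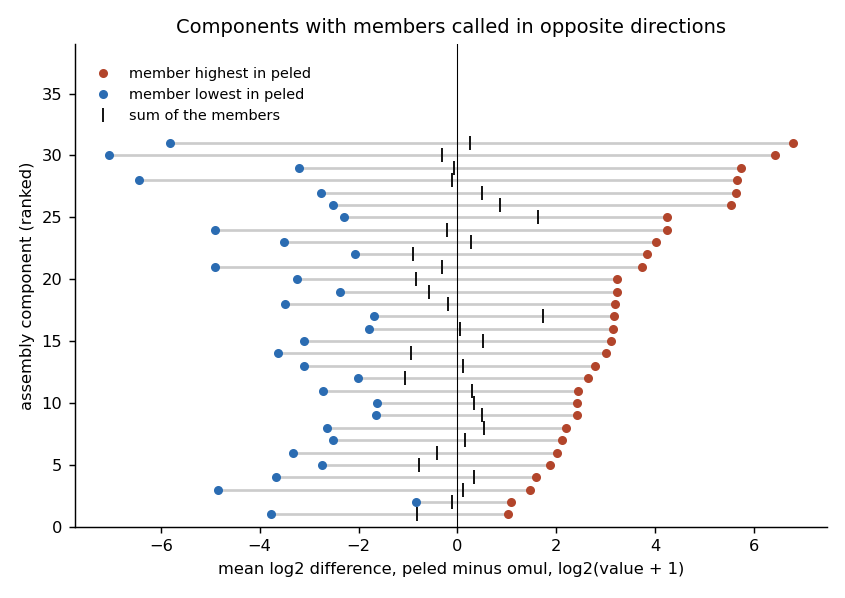
Mean log2 difference, peled minus omul (x axis, log2(value + 1)), of the most positive member (red), the most negative member (blue) and the summed value (black tick) of the 31 assembly components with members called in opposite directions, 1 row per component (y axis, ranked by the most positive member). Sums gather around 0, with 28 of 31 within 1, while members reach 6.80 and -7.04.

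The species difference of aquaculture larvae was then set against that of larvae from nature, by the interaction of species and origin over all 8 libraries. The difference between origins was called for 1503 of 2184 genes (68.8%, limma, adjusted p below 0.05), 763 with a higher peled minus omul difference in aquaculture than in nature and 740 with a lower one. Its error came from the aquaculture libraries alone, with 1 nature library per species. Origin cannot be told apart from age, temperature or pond, nor from a difference in the make-up of the pools. The aquaculture side averaged control, acute and chronic larvae, while both nature pools were labelled control, so the origins also differed in heating. With libraries scaled to a common sum, which moved the median of all genes by 0.73 (log2), 1248 genes were called, 852 higher and 396 lower. The median absolute species difference was 2.10 in aquaculture and 0.57 in nature, and it was larger in aquaculture for 1886 genes (86.4%). Of the species calls, 722 of the 845 higher and 728 of the 999 lower were also called between origins with the same sign. With the opposite sign there were 0. Both tests draw on the same aquaculture libraries and error, so the calls between origins are not independent of the species calls.

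Most genes called in aquaculture lay less than 2-fold apart in nature, as did most listed genes, whose median absolute difference there was 0.57. The share over the whole list was not computed, so the shares of called genes do not set them apart from it. Of the 845 genes higher in aquaculture peled, 671 (79.4%) had a nature difference below 1 in size, 10 were at least 1 higher in nature peled and 164 at least 1 lower. Of the 999 genes lower in aquaculture peled, 793 (79.4%) were below 1 in size in nature, 86 were at least 1 lower in nature peled and 120 at least 1 higher. The 845 genes had median values of 18.3, 18.7 and 16.1 in control, acute and chronic aquaculture peled and 2.28, 2.09 and 1.99 in aquaculture omul, but 4.67 in nature peled and 7.45 in nature omul. The 999 genes had medians of 2.25, 2.19 and 2.44 in aquaculture peled and 17.6, 16.6 and 16.5 in aquaculture omul, but 16.8 in nature peled and 14.6 in nature omul.

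On the log2 scale the place of the libraries from nature depended on the direction of the call. Among the 999 genes lower in aquaculture peled, nature peled was nearer to the aquaculture peled mean in 196 (19.6%) and nature omul in 151 (15.1%), the others being nearer to the aquaculture omul mean. Many of the others exceeded both means. Nature peled lay above both in 529 of the 999 and below both in 78, and nature omul above both in 421 and below both in 48. Among the 845 higher genes, nature peled was nearer to aquaculture peled in 357 (42.2%) and nature omul in 447 (52.9%). Here nature peled lay below both means in 264 and above both in 66, and nature omul below both in 181 and above both in 110. Summed values were 228369 in nature peled and 154860 in nature omul, above every aquaculture library, and nearness was not counted again with scaled libraries. Over all 1844 these shares were 30.0% for nature peled and 32.4% for nature omul. The libraries from nature lay between the aquaculture means of the species in 907 genes for peled and in 1084 for omul, and both did in 784 (42.5%). Among the 182 genes called with a difference of at least 4 in size, both lay between in 129 (70.9%). A wider gap between the means leaves more room for a further library by construction, so this share cannot be set against the 42.5%. Neither share was computed over all listed genes. In the 101 of the 182 that were higher in aquaculture peled, nature peled had a median value of 21.9 and nature omul of 30.5. In the 81 that were lower the medians were 47.5 in nature peled and 46.6 in nature omul. Below a value of 1 were 6 of the 101 in nature peled and 1 in nature omul, and 0 of the 81 in either.

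The genes named for the difference between origins were picked as its extremes, so their values describe them and do not bear on the rest of the list. TRINITY_DN79_c1_g2 was at 1249 in nature peled and 1770 in nature omul, so that the species difference was 10.74 (log2) higher in aquaculture than in nature (SE 1.16, limma adjusted p = 0.00111). TRINITY_DN28795_c0_g1 stood at 475 in nature peled and 594 in nature omul, with a difference between origins of 8.93 (SE 1.02, limma adjusted p = 0.00116). TRINITY_DN7205_c1_g2 stood at 1083 in nature peled and 924 in nature omul, with -8.90 (SE 0.77, limma adjusted p = 0.000938). All 3 were present in both species from nature at levels within 2-fold of each other.

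TRINITY_DN10607_c0_g4 was at 1.68, 21.0 and 1.27 in control, acute and chronic aquaculture peled, against 522, 772 and 700 in aquaculture omul. In nature it was at 1301 in peled and 407 in omul, the reverse order. The species difference was -7.01 in aquaculture and 1.67 in nature, a difference between origins of -8.68 (SE 1.23, limma adjusted p = 0.00187).

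**Figure D5:**
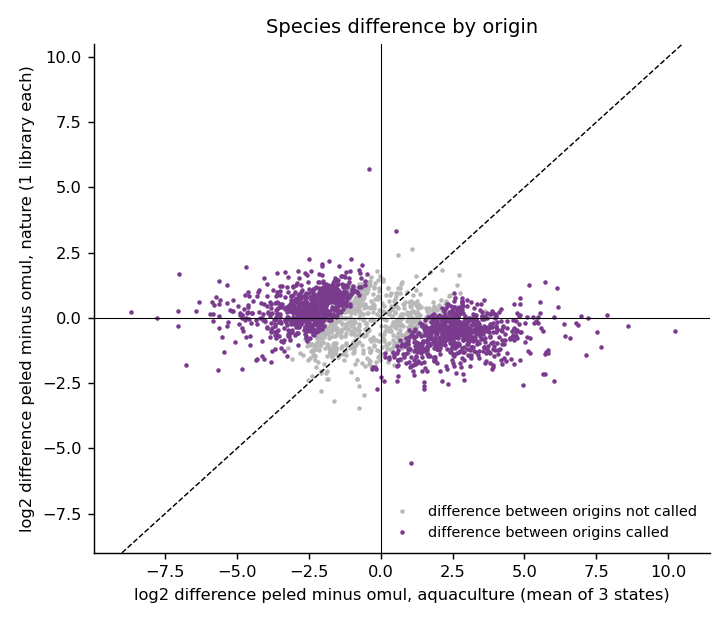
Log2 difference, peled minus omul, in nature (y axis, 1 library per species) against the mean difference in aquaculture (x axis, 3 libraries per species), 1 point per gene on the log2(value + 1) scale, with genes whose difference between origins was called in purple and the line of equality dashed. The cloud is wide along the aquaculture axis, with a median absolute difference of 2.10, and narrow along the nature axis, at 0.57.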

How the data were processed

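RNA was extracted from single larvae and pooled per group before sequencing, per the labels' protocols. The authors deposited 1 normalized expression signal per gene and library; its unit, the assembler, the quantifier and the gene selection were not stated. Per the submitters' processing notes, the tools included Trimmomatic 0.36 and edgeR 4.0.3, whose roles are not described. Values were taken as log2(value + 1), which understates changes of low genes. limma 3.58.1 in R 4.3.3, with the spread trended on level, was fitted to all 2184 genes, without a filter on low values. The species test used the 6 aquaculture libraries with state as an additive block (2 residual degrees of freedom, prior degrees of freedom 5.54), and the origin test all 8 libraries. The code was tested on simulated data. Named genes were, among called genes with one sign in the 3 states and at 10 or above in each library of the higher species, the 2 most positive and 2 most negative, and for the origin test the 2 at each end at 10 or above in at least 3 libraries. The comparison and the rules were chosen with earlier results of these data known. Alternatives were the pseudocount, a filter, scaling, the trend, the block, summing over components and leaving out each library.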

Additional observations from a re-analysis of the deposited data

Results flagged for a closer look

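The peled minus omul difference itself differed between origins, by the interaction test over 8 libraries, for 1503 of the 2184 genes. Among them were 722 genes called higher and 728 called lower in aquaculture peled, with the same sign in both tests. The 2 tests share the aquaculture libraries, so this is not a separate result for those genes. The genes singled out by that test were TRINITY_DN79_c1_g2, with a difference of 10.74 (log2) between aquaculture and nature, TRINITY_DN28795_c0_g1 with 8.93, TRINITY_DN7205_c1_g2 with -8.90 and TRINITY_DN10607_c0_g4 with -8.68. The nature side of each value rests on 1 library per species.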

How the results depend on the processing

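Of the 125 alternative values of counts, 109 stayed within 1.5 times the reported count, and all 104 values of single named genes kept their sign and their call. The count of species calls, 1844 of 2184, could not have risen beyond that band. The 125 values also overlap, since totals stand beside their higher and lower parts. Counts of 2-fold differences in single states, made without a test, were also set against the limma count. The named genes were picked as extremes of these data, so their 104 values do not bear on the other calls. Testing only genes with a mean of at least 10 gave 944 species calls of 1148 genes (444 higher and 500 lower in peled), 17 opposed components and 831 calls between origins (388 higher and 443 lower in aquaculture), since fewer genes were tested. The additive fit over all 8 libraries, which averages in the libraries from nature, gave 783 species calls (392 higher, 391 lower) and 14 opposed components. These were 35.9% of the list, beside 84.4% in the species test. All 783 were among the 1844, and most of the 1844 were no longer called. Scaling to a common sum moved the median species difference of all genes by 0.31 (log2), with 923 genes called higher and 902 lower in peled. It left 396 genes lower between origins and 9 genes near 0 in peled. With libraries scaled to a common median 837 genes were called higher and 1008 lower in peled. Leaving out 1 library removes its state from the species difference and left 1 residual degree of freedom. It gave 1580 to 1864 species calls (740 to 863 higher, 840 to 1002 lower) and 28 to 31 opposed components. Calls between origins numbered 1214 to 1662 (636 to 825 higher, 571 to 843 lower). The highest counts of calls came from leaving out a chronic library. With so few degrees of freedom the spread rests on other genes, so these ranges do not by themselves measure how stable the calls are. Genes near 0, with 1 library left out, numbered 23 to 49 in peled and 44 to 67 in omul, because the rule asks for fewer libraries. They were 45 in peled without acute peled, 49 in peled without chronic peled and 67 in omul without control omul. With no replicate block, that is without the state term, 1725 genes were called, 1717 of them among the 1844. Sequencing depth and the spread between replicate pools are unknown.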
